A study of Mus musculus with 9 samples.

Results

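The cytokine gene Tnf, 4 genes whose products restrain or shape NF-kB activity (Tnfaip3, Nfkbia, Nfkbie and Nfkbiz) and the 5 genes of the NF-kB subunits (Rela, Relb, Rel, Nfkb1 and Nfkb2) were followed in mouse bone-marrow-derived macrophages exposed to oxidised low-density lipoprotein (ox-LDL). The 10 genes were taken by their symbols from 56775 genes in the expression tables. All 10 had enough reads to be tested among 14794 genes. The study asked how loss of MKP5, the dual-specificity phosphatase encoded by Dusp10 that acts on MAP kinases, alters macrophage gene expression under ox-LDL. Femoral marrow of wild-type (WT) mice and of mice lacking MKP5 (MKP5-/-, written MKP5-KO here) was differentiated for 7 days in medium with 15% L-929 supernatant, a source of the macrophage growth factor CSF1. RNA of whole cultures was sequenced in 3 libraries each of WT cells at 0 h, without ox-LDL, WT cells after 24 h of ox-LDL, and MKP5-KO cells after 24 h of ox-LDL. The dose was 20 µg/mL and the labelled strain background was C57BL/6 in all groups. The labels give neither the age of the mice nor the kind of deletion. They do not state whether replicates came from separate animals or cultures, so the p-values measure the spread between these libraries, which may be technical. Unstimulated MKP5-KO cells, and a WT culture held to 24 h with no ox-LDL added, were not analysed here. Thus ox-LDL and the extra time in culture cannot be told apart. Nor can a difference between genotypes at 24 h be told apart from one already present before ox-LDL.

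TNF is a cytokine made by activated macrophages, and it signals through its receptors to the IkB kinase complex. That complex marks IkB inhibitor proteins for destruction, which frees NF-kB dimers to enter the nucleus and switch on target genes. Tnf itself and several inhibitors are among those targets, so the pathway contains its own brakes. In macrophages it governs much of the inflammatory response, including responses to modified lipoproteins.

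Promoter and 3′ UTR sequences of several of these genes carry elements long known to control them, and they are shown so that the values can be read beside them. RefSeq promoter windows of 250 bases directly upstream of the transcription start were found for 7 of the 10 genes, with 10 windows in all. The classical kB consensus, searched by name on both strands, was present in 7 of the 10 windows and in 5 of the 7 genes (Tnfaip3, Nfkbia, Nfkbie, Rel and Nfkb2). It was present in 7.25% of 32851 promoter windows of the same length. The looser pattern GGGNNNNNCC, searched on both strands and able to overlap the consensus, was in 10 of the 10 windows and in 45.8% of all windows. A match describes the letters and is not evidence of binding. The 4 windows printed here, 5′ to 3′ on the coding strand in GRCm38.p6, come from the cytokine gene, the inhibitor genes Tnfaip3 and Nfkbia, and the subunit gene Nfkb2, and capitals mark matches to the consensus. Their positions are chr17:35202008-35202257 (minus strand) for Tnf, chr10:19015411-19015660 (minus) for Tnfaip3, chr12:55492648-55492897 (minus) for Nfkbia and chr19:46304487-46304736 (plus) for the first of 3 Nfkb2 starts.
Tnf: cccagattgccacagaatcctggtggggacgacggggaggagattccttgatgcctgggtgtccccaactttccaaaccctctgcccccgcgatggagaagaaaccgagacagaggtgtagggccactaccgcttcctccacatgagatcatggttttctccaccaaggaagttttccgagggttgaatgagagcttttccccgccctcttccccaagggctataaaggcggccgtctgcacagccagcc
Tnfaip3: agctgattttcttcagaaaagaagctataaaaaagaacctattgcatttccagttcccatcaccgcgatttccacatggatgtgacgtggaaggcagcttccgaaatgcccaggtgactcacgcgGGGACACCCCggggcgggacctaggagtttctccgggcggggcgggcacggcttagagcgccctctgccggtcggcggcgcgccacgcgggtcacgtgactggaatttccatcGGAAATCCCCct
Nfkbia: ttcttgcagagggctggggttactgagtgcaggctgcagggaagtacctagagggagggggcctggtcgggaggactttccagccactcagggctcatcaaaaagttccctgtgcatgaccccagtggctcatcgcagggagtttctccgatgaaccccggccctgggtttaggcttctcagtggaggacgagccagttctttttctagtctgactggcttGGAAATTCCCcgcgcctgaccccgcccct
Nfkb2: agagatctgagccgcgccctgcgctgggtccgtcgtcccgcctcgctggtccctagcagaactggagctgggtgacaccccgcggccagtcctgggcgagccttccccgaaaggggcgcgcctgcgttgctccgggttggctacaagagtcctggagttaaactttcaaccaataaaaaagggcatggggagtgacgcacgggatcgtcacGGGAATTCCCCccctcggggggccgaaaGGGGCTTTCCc
The printed Nfkb2 window holds matches that begin 39 and 11 bases upstream of the start, and the Nfkbia window 1 that begins 29 bases upstream. In the printed Tnfaip3 window, matches begin 125 and 12 bases upstream. Tnfaip3 has 2 windows, and the one not printed has no match to the consensus. The Tnf window has no match to the strict consensus in these 250 bases.

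The Tnf mRNA is also controlled after transcription through an AU-rich element in its 3′ UTR, at which decay factors of the Zfp36 family bind. Bases 437 to 466 of the Tnf 3′ UTR (GENCODE M21, GRCm38) are shown because they hold its copies of the AU-rich nonamer ATTTATTTA, in capitals.
Tnf AU-rich site: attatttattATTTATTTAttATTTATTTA
The Tnf 3′ UTR held 2 copies of the nonamer, and the longest annotated 3′ UTRs of the other 9 genes held 0. At least 1 copy occurred in 6.16% of 21020 coding genes with a 3′ UTR, and 1.47% had at least 2.

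Library depth ran from 11139997 to 19875433 reads, and the 3 MKP5-KO libraries were the shallowest. The genotype and time in each table's header matched the labels in all 9 libraries. Dusp10, the targeted gene, had 41, 48 and 44 reads in WT cells at 0 h, 43, 38 and 40 in WT cells at 24 h and 4, 6 and 4 in MKP5-KO cells. At 24 h its level in MKP5-KO cells was 5.65-fold below that of WT cells (limma log2 difference -2.50, SE 0.260, adjusted p = 9.52e-05). The macrophage markers Adgre1, Csf1r, Cd68, Lyz2, Mertk, Itgam, Fcgr1 and Cd14 were all detected, with a summed level of 7083 to 7268 CPM at 0 h, 16713 to 19494 CPM in WT cells at 24 h and 11651 to 13237 CPM in MKP5-KO cells. Lyz2 was the largest single part of this sum in each group (3025, 10892 and 5757 CPM on average). Cd14, Cd68 and Fcgr1 went against the sum. They fell in WT cells at 24 h (log2 differences -0.61, -0.57 and -1.48). They were higher in MKP5-KO than in WT cells at 24 h (0.60, 0.32 and 0.43, the last lost in 4 of 19 alternative analyses). CPM here are reads per 1000000 of the scaled library size, recovered from the deposited log2 values. Marker sums for other cell types also moved. The sum of 3 monocyte markers (Ly6c2, Ccr2 and Plac8) was 352 to 365 CPM at 0 h, 32.5 to 38.9 in WT cells at 24 h and 44.6 to 49.5 in MKP5-KO cells. The sum of 11 neutrophil markers was 143 to 152, 69.6 to 76.6 and 49.8 to 54.9 CPM in the same order, with Camp, Elane and Retnlg at 0 in both 24 h groups and Mpo also at 0 in MKP5-KO cells. Almost all of the 24 h sums came from Csf3r (31.9, 48.7 and 42.2 CPM) and Mmp8 (9.68, 24.2 and 9.73 CPM), which rose in WT cells, whereas the other 7 tested markers fell to means of at most 0.234 CPM in both 24 h groups. The sum of 7 fibroblast markers, none at 0 in any group, was 2.26 to 3.86, 90.9 to 112 and 7.63 to 17.9 CPM. Col1a1, Col1a2, Postn and Acta2 carried these differences, while Pdgfra (0.663, 0.51 and 0.795 CPM), Dcn (0.425, 0.247 and 0.606 CPM) and Lum (0.0362, 0.0311 and 0.0701 CPM) had low levels that were no higher in WT cells at 24 h than at 0 h. The 5 dendritic cell markers summed to 0.689 to 2.42 CPM over all 9 libraries, with Xcr1 at 0 in WT cells at 24 h. The part of these shifts in the results was not tested, and in RNA of whole cultures fewer cells of a type and less RNA per cell cannot be told apart.

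**Figure D1:**
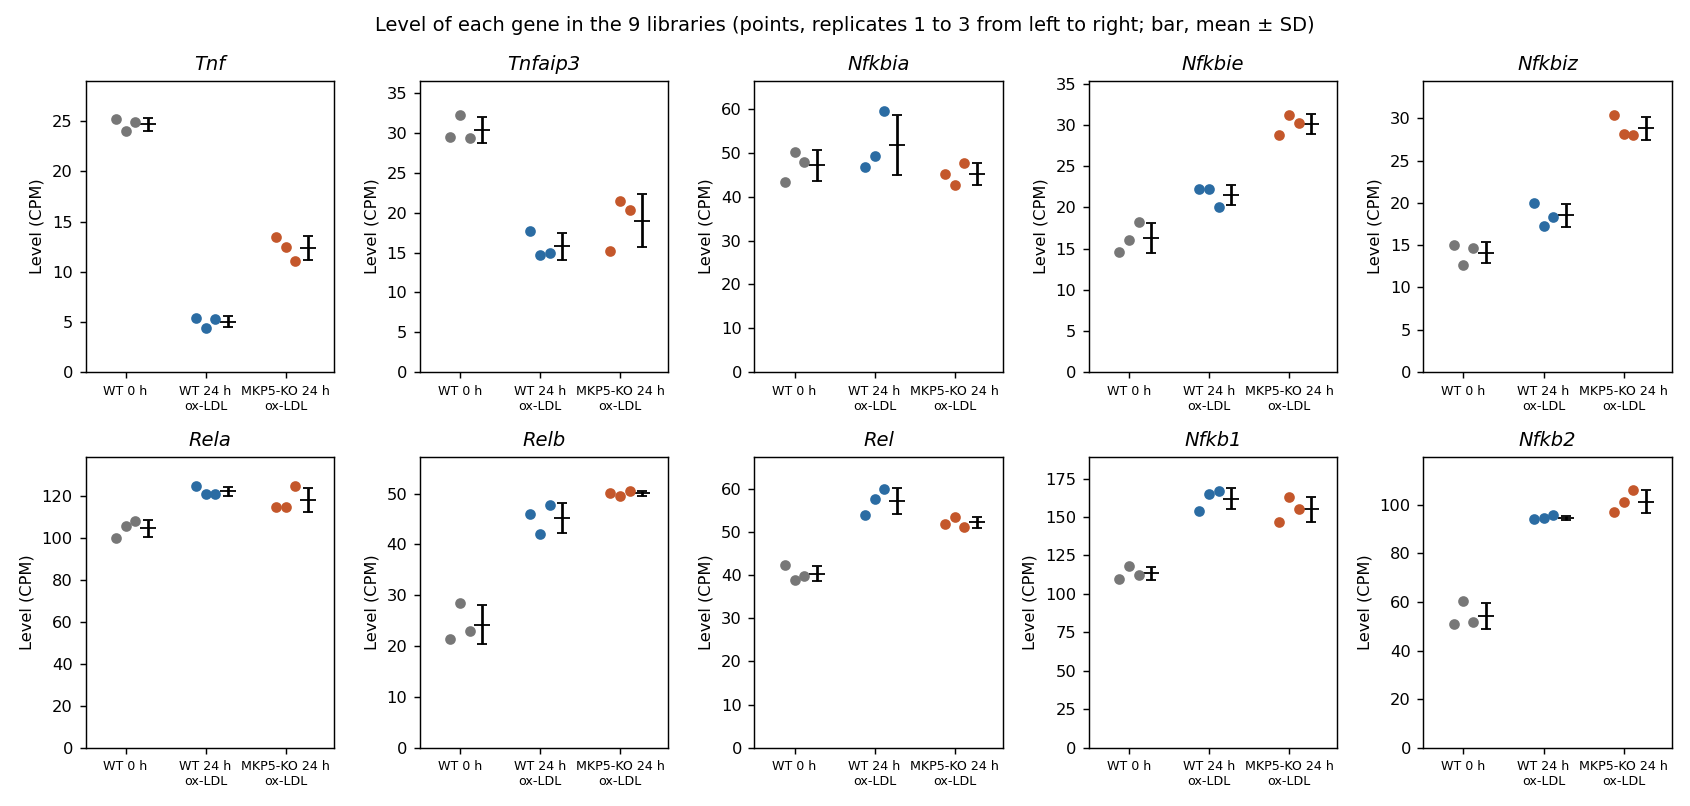
Level of each of the 10 genes in CPM (vertical axes, linear and starting at 0, each gene on its own scale) in WT cells at 0 h (grey), WT cells after 24 h of ox-LDL (blue) and MKP5-KO cells after 24 h of ox-LDL (orange). Points are single libraries, and bars are the mean ± SD of 3; Tnf was 24.7, 5.01 and 12.4 CPM on average, and Nfkbiz 14.1, 18.5 and 28.8.

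In WT cells, Tnf and Tnfaip3 fell between 0 h and 24 h of ox-LDL while 7 genes of the inhibitors and subunits rose. Thus 9 of 10 genes passed limma's test at an adjusted p under 0.05, against 55.4% of all genes tested. The 7 that rose compare with 27.4% of all genes that rose, and the 2 that fell with 28% of all genes. Libraries of the groups did not overlap for 9 of the 10 genes and for 64% of all genes. The median log2 difference was 0.40 over the 10 genes and 0.01 over all genes tested.

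Between genotypes at 24 h, Tnf, Nfkbie and Nfkbiz were higher in MKP5-KO cells, and none of the 10 genes was called lower. The 3 called genes compare with 28.6% of all genes called, of which 11.8% of all genes were higher and 16.8% lower. With upper-quartile scaling the whole-table split was 2566 higher and 1533 lower, in place of 1739 and 2491. Groups did not overlap for 6 of the 10 genes and for 44.9% of all genes. The share of the 10 genes called was thus near that of the whole table. The median log2 difference was 0.12 over the 10 genes and -0.05 over all genes.

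MKP5-KO cells at 24 h were also set beside WT cells at 0 h, a comparison that joins genotype, ox-LDL and time and shares libraries with both others. Here 9 of 10 genes were called, 7 higher and 2 lower, against 56.2% of all genes, of which 24.9% of all genes were higher and 31.2% lower. Upper-quartile scaling moved the median of all genes by 0.132 on the log2 scale in this comparison, and the whole-table split to 4856 higher and 3579 lower from 3690 and 4621. Groups did not overlap for 9 of the 10 genes and for 63.3% of all genes. The median log2 difference was 0.41 over the 10 genes and -0.02 over all genes.

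**Figure D2:**
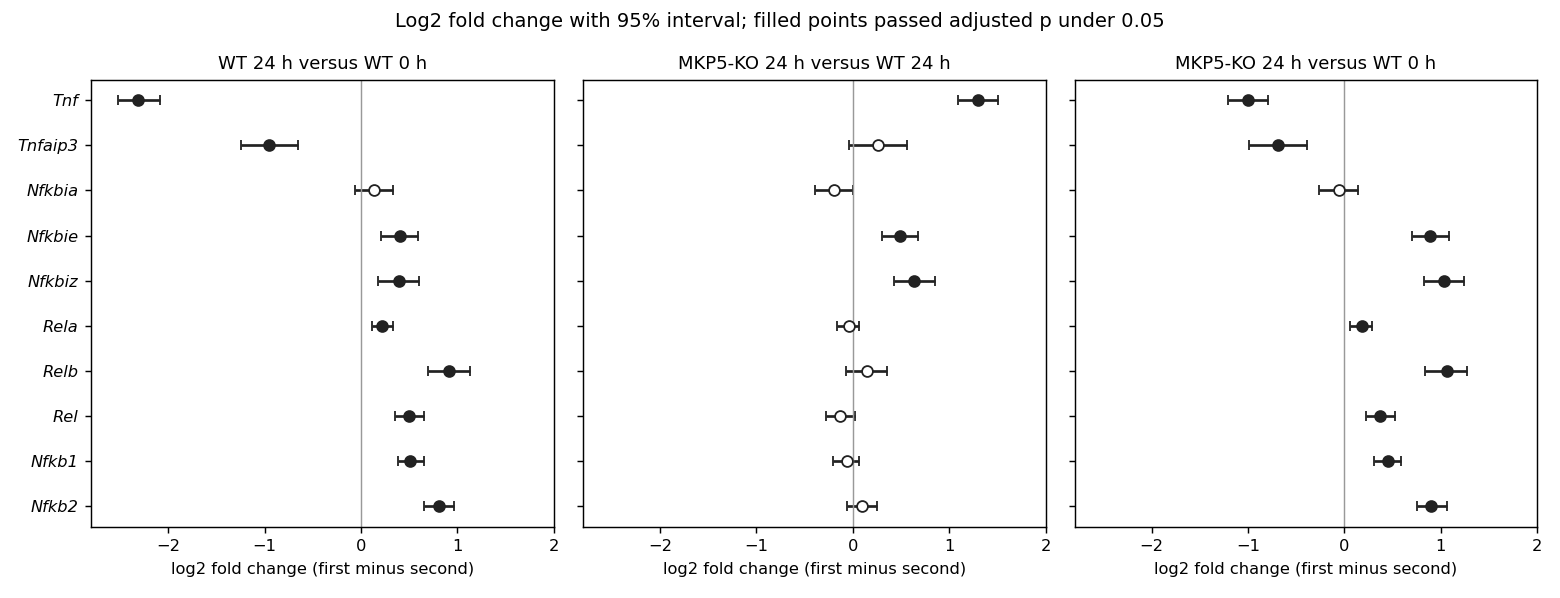
Log2 difference (horizontal axis) of each of the 10 genes in the 3 comparisons, with the limma 95% confidence interval as a bar; filled points passed the adjusted p threshold of 0.05. Tnf and Tnfaip3 lie left of 0 in WT cells at 24 h against 0 h, and Tnf, Nfkbie and Nfkbiz are the filled points right of 0 in MKP5-KO against WT cells at 24 h.

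Tnf, which encodes the cytokine itself, had the largest difference of the 10 genes both in WT cells over time and between genotypes at 24 h. Its level was 25.2, 24 and 24.9 CPM in WT cells at 0 h, 5.38, 4.36 and 5.27 CPM in WT cells at 24 h, and 13.5, 12.5 and 11.1 CPM in MKP5-KO cells at 24 h. The 3 groups were fully apart, with MKP5-KO cells between the WT groups. The counts behind these levels were 464, 467 and 461 reads, then 110, 95 and 119, then 185, 193 and 184. In WT cells Tnf fell 4.94-fold (log2 difference -2.31, SE 0.096, adjusted p = 9.32e-09). At 24 h it was 2.47-fold higher in MKP5-KO than in WT cells (log2 difference 1.30, SE 0.096, adjusted p = 1.11e-05), and its p ranked 42 among 14794 genes. It was 2-fold lower in MKP5-KO cells at 24 h than in WT cells at 0 h (95% interval of the log2 difference -1.21 to -0.79, SE 0.096, adjusted p = 5.21e-06). The neighbouring cytokine gene Lta had 1 read over all 9 libraries, and Ltb, which encodes the partner that forms lymphotoxin heterotrimers, had 64. Neither was tested.

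Among tested genes other than predicted ones, Rhov had the centred log2 profile over the 9 libraries nearest to that of Tnf (root-mean-square difference 0.123). Next came Bcl2, an inhibitor of apoptosis (0.160), Plk2, a polo-like kinase (0.176), Traf1, a TNF receptor adaptor (0.187), and Trmt61a, a tRNA methyltransferase subunit (0.197). Mean levels of Rhov were 17.7, 3.74 and 7.9 CPM in the order WT at 0 h, WT at 24 h and MKP5-KO at 24 h. In the same order they were 26.3, 5.18 and 11.2 CPM for Bcl2. For Traf1 they were 11.4, 2.03 and 4.47 CPM. Likeness over 9 libraries in 3 groups rests mostly on the 3 group means, which these genes share in order.

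Tnfaip3 encodes A20, a ubiquitin-editing enzyme that shuts down signalling from TNF receptors to NF-kB. Its level was 29.5, 32.3 and 29.4 CPM in WT cells at 0 h, 17.7, 14.7 and 14.9 CPM in WT cells at 24 h, and 15.2, 21.5 and 20.3 CPM in MKP5-KO cells. All 6 libraries at 24 h lay below the 3 at 0 h, and the 24 h groups overlapped because replicate 1 of the MKP5-KO cells was low. Tnfaip3 fell 1.93-fold in WT cells (log2 difference -0.95, SE 0.138, adjusted p = 0.000125). The difference between genotypes at 24 h did not pass the test (log2 difference 0.26, 95% interval -0.04 to 0.56, adjusted p = 0.175). Without replicate 1 of the MKP5-KO cells it did, at a log2 difference of 0.41 (limma adjusted p = 0.0302).

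Within each library, Tnf outweighed Tnfaip3 per kilobase of exon 3.77-, 3.28- and 3.74-fold in WT cells at 0 h. The ratio was 1.34, 1.31 and 1.56 in WT cells at 24 h and 3.9, 2.56 and 2.41 in MKP5-KO cells. Every WT library at 24 h thus had a lower ratio than the other 6 libraries. These within-library ratios do not depend on the scaling between libraries, and they are given as a description without a test.

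Nfkbia encodes IkB-alpha, the inhibitor that is degraded and remade during each round of NF-kB activation. Its level was 43.4, 50.2 and 48 CPM in WT cells at 0 h, 46.8, 49.3 and 59.6 CPM in WT cells at 24 h, and 45.3, 42.7 and 47.8 CPM in MKP5-KO cells. The groups overlapped in every comparison. Nfkbia alone of the 10 genes passed no test. The log2 difference was 0.13 in WT cells at 24 h against 0 h (95% interval -0.06 to 0.33, adjusted p = 0.237), -0.19 between genotypes at 24 h (-0.39 to 0.00, adjusted p = 0.129), and -0.06 for MKP5-KO cells at 24 h against WT cells at 0 h (-0.26 to 0.14, adjusted p = 0.587). These intervals, and not the missed threshold, bound how far the groups could differ. The sign of the last of these turned with upper-quartile scaling, to 0.07.

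Nfkbie encodes IkB-epsilon, which holds NF-kB dimers in the cytoplasm. Its level was 14.6, 16.1 and 18.2 CPM in WT cells at 0 h, 22.3, 22.2 and 20.1 CPM in WT cells at 24 h, and 28.8, 31.2 and 30.3 CPM in MKP5-KO cells. The 3 groups did not overlap, and they stepped up in that order. Nfkbie rose 1.32-fold in WT cells (log2 difference 0.40, SE 0.086, adjusted p = 0.00202). It was 1.4-fold higher in MKP5-KO than in WT cells at 24 h (log2 difference 0.49, SE 0.086, adjusted p = 0.00229) and 1.85-fold higher than in WT cells at 0 h (adjusted p = 6.08e-06).

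Nfkbiz encodes IkB-zeta, a nuclear IkB protein that works with NF-kB on chromatin and is needed for a set of secondary response genes. It was measured at 15, 12.7 and 14.7 CPM in WT cells at 0 h, 20, 17.3 and 18.3 CPM in WT cells at 24 h, and 30.4, 28.1 and 28 CPM in MKP5-KO cells. The groups were again apart and in the same order as for Nfkbie. Nfkbiz rose 1.31-fold in WT cells (log2 difference 0.39, SE 0.095, adjusted p = 0.00452). Its level was 1.56-fold higher in MKP5-KO than in WT cells at 24 h (log2 difference 0.64, SE 0.095, adjusted p = 0.00081) and 2.04-fold higher than in WT cells at 0 h (adjusted p = 4.18e-06).

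Per kilobase and within libraries, Nfkbiz stood at 0.0968 ± 0.0148, 0.116 ± 0.0195 and 0.205 ± 0.0146 of Nfkbia (ratio, mean ± SD, n = 3) in WT cells at 0 h, WT cells at 24 h and MKP5-KO cells at 24 h. The corresponding ratios of Nfkbie to Nfkbia were 0.183 ± 0.0157, 0.222 ± 0.039 and 0.353 ± 0.0291. For both ratios every MKP5-KO library lay above all 6 WT libraries, and the WT groups overlapped.

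Rela encodes the main transactivating subunit, RelA. Its level was 100, 106 and 108 CPM in WT cells at 0 h, 125, 121 and 121 CPM in WT cells at 24 h, and 115, 115 and 125 CPM in MKP5-KO cells. The WT groups did not overlap and the 24 h groups did. Rela rose 1.16-fold in WT cells (log2 difference 0.22, SE 0.051, adjusted p = 0.00329), the smallest of the called differences among the 10 genes in that comparison. Between genotypes at 24 h the log2 difference was -0.04 (95% interval -0.16 to 0.07, adjusted p = 0.539). Against WT cells at 0 h, Rela was 1.13-fold higher in MKP5-KO cells (adjusted p = 0.0125), and this call was lost without replicate 1 of the 0 h cells (log2 difference 0.14, limma adjusted p = 0.0552).

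Relb encodes RelB, the partner of the processed Nfkb2 product in the noncanonical route. It stood at 21.3, 28.5 and 22.9 CPM in WT cells at 0 h, 46, 42 and 47.8 CPM in WT cells at 24 h, and 50.1, 49.5 and 50.5 CPM in MKP5-KO cells. The WT groups were far apart, and the MKP5-KO libraries lay just above those of WT cells at 24 h. Relb rose 1.88-fold in WT cells (log2 difference 0.91, SE 0.098, adjusted p = 1.21e-05). The difference between genotypes at 24 h did not pass the test (log2 difference 0.15, 95% interval -0.07 to 0.36, adjusted p = 0.286).

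Nfkb2 encodes the precursor of the noncanonical route, which acts as an inhibitor until it is cleaved to a subunit. Its level was 50.8, 60.5 and 51.7 CPM in WT cells at 0 h, 94, 94.5 and 95.6 CPM in WT cells at 24 h, and 96.8, 101 and 106 CPM in MKP5-KO cells. As for Relb, both 24 h groups lay far above 0 h and the MKP5-KO libraries lay just above the WT ones. Nfkb2 rose 1.75-fold in WT cells (log2 difference 0.81, SE 0.070, adjusted p = 2.28e-06). Between genotypes the log2 difference was 0.10 (95% interval -0.06 to 0.25, adjusted p = 0.315), and it passed the test only with upper-quartile scaling, at 0.19 (limma adjusted p = 0.0431). The Nfkb2 locus overlaps Psd on the opposite strand, and strand use in the counting is not given in the sources used here, so reads of the overlap cannot be told apart.

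Rel encodes c-Rel, a subunit active mainly in blood cells. Its level was 42.3, 38.9 and 39.7 CPM in WT cells at 0 h, 54, 57.5 and 60 CPM in WT cells at 24 h, and 51.8, 53.5 and 51.2 CPM in MKP5-KO cells. The MKP5-KO libraries all lay between the WT groups. Rel rose 1.42-fold in WT cells (log2 difference 0.50, SE 0.069, adjusted p = 7.82e-05). At 24 h the difference between genotypes was -0.13 on the log2 scale (95% interval -0.28 to 0.02, adjusted p = 0.175), which did not pass the test although the groups did not overlap.

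Nfkb1 encodes the precursor of the canonical DNA-binding partner of RelA. It stood at 110, 118 and 112 CPM in WT cells at 0 h, 154, 165 and 167 CPM in WT cells at 24 h, and 147, 163 and 155 CPM in MKP5-KO cells. The 24 h groups overlapped each other and lay above 0 h. Nfkb1 rose 1.43-fold in WT cells (log2 difference 0.51, SE 0.062, adjusted p = 3.17e-05). Between genotypes the log2 difference was -0.06 (95% interval -0.20 to 0.07, adjusted p = 0.475). Nfkb1 has too many reads for the recovered counts to be checked as whole numbers, and its deposited log2 values were tested like those of the other genes.

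In MKP5-KO cells at 24 h against WT cells at 0 h, the log2 difference was 0.90 for Nfkb2, 1.06 for Relb, 0.37 for Rel and 0.45 for Nfkb1. All 4 passed the test, with adjusted p-values of 1.09e-06, 4.3e-06, 0.000761 and 9.46e-05. Tnfaip3 was 1.61-fold lower in the same comparison (adjusted p = 0.00134).

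Levels were set between genes per kilobase of exon, as CPM per kilobase. Rela was the most abundant of the 10 mRNAs in all 3 groups, at 34.1 ± 1.32, 39.7 ± 0.694 and 38.6 ± 1.8 CPM per kilobase (SD, n = 3) in WT cells at 0 h, WT cells at 24 h and MKP5-KO cells. Nfkbia was next in each group, at 29.3 ± 2.14, 32.2 ± 4.19 and 28.1 ± 1.58. Tnf ranked 3 of 10 at 0 h with 15.1 ± 0.38, 9 of 10 in WT cells at 24 h with 3.05 ± 0.342 and 7 of 10 in MKP5-KO cells with 7.54 ± 0.718. The order at 0 h went on with Nfkb2, Nfkb1, Relb, Rel, Nfkbie, Tnfaip3 and Nfkbiz, of which Relb, Rel and Nfkbie overlapped between libraries. In WT cells at 24 h it went on from Nfkbia with Nfkb2, Nfkb1, Relb, Rel, Nfkbie, Nfkbiz, Tnf and Tnfaip3, and Rel and Nfkbie overlapped. In MKP5-KO cells it went on from Nfkbia with Nfkb2, Relb, Nfkb1, Nfkbie, Tnf, Rel, Nfkbiz and Tnfaip3, with overlap between Relb and Nfkb1 and between Tnf and Rel. Tnfaip3 was last in both 24 h groups, at 2.18 ± 0.234 and 2.63 ± 0.461, whereas Nfkbiz was last at 0 h, at 2.82 ± 0.249.

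Relb and Nfkb2, the pair of the noncanonical route, made up a larger share of the subunit mRNAs in every library at 24 h than in any library at 0 h. As a share of the 5 subunit mRNAs per kilobase, Rela made up 51%, 49.3% and 52.5% in WT cells at 0 h, 43.6%, 42.8% and 41.6% in WT cells at 24 h, and 41.4%, 40.3% and 42.1% in MKP5-KO cells. Nfkb2 made up 17.3%, 18.8% and 16.8%, then 22.1%, 22.4% and 22.1%, then 23.3%, 23.8% and 24%. Both 24 h groups were apart from 0 h for these genes, and for Nfkb2 the MKP5-KO libraries were also above the WT ones. The mean share of Relb was 9.27%, 12.5% and 13.8% in the same order of groups, with SDs of 1.03, 0.697 and 0.392. Nfkb1 stayed between 13.4% and 14.8% in all 9 libraries, and Rel between 7.11% and 8.85%. The summed level of the 5 subunits was 67 ± 3.1 CPM per kilobase at 0 h, 93.1 ± 1.08 in WT cells at 24 h and 93.4 ± 2.97 in MKP5-KO cells (SD, n = 3). The ratio of Relb to Rela was 0.182 ± 0.0255, 0.293 ± 0.0198 and 0.334 ± 0.0127, and that of Nfkb2 to Nfkb1 was 1.26 ± 0.0772, 1.54 ± 0.0547 and 1.72 ± 0.0797. Shares and ratios are given as descriptions without a test.

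**Figure D3:**
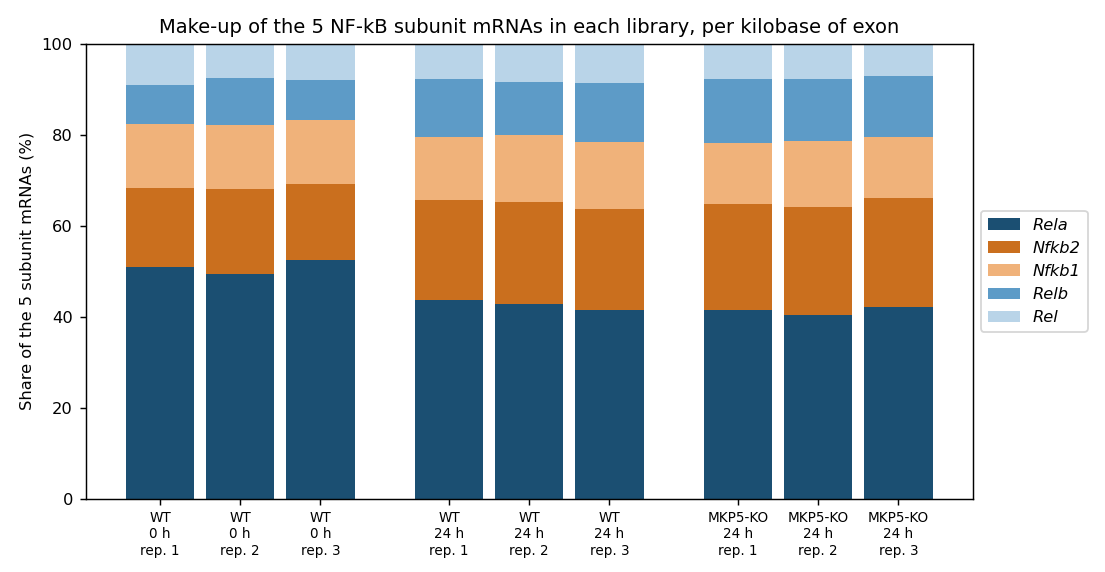
Share of the 5 NF-kB subunit mRNAs (vertical axis, percent of their summed CPM per kilobase of exon) in each of the 9 libraries, with 1 stacked bar per library and 1 colour per gene. The Rela segment is 49.3% to 52.5% in WT cells at 0 h and 40.3% to 43.6% in all libraries at 24 h, where the Nfkb2 and Relb segments are wider.

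Other genes of the pathway were read from lists of 102 different genes, of which 88 were tested. Among 20 TNF receptors and proximal adaptors, 8 rose and 7 fell in WT cells at 24 h, beside 27.4% and 28% of all genes, with a median log2 difference of 0.09. In all 19 alternatives 6 of the 8 and 6 of the 7 kept their call, and it was lost for Sharpin in 6, Tab1 in 4 and Tab3 in 3. Tnfrsf1b, the second TNF receptor, rose by 1.81 (adjusted p = 2.32e-09), Adam17, the protease that sheds TNF, by 0.71 (adjusted p = 3.46e-06), and Birc3, a ubiquitin ligase of the receptor complex, by 1.15 (adjusted p = 3.5e-06), while Traf1 fell by 2.47 (adjusted p = 2.94e-06), all on the log2 scale. Between genotypes, 2 of the 20 were higher and 4 lower in MKP5-KO cells, beside 11.8% and 16.8% of all genes, with a median of -0.10. The 4 lower ones were Map3k7, the kinase TAK1 (log2 difference -0.40), its partner gene Tab2 (-0.35), Ripk1, the receptor-proximal kinase (-0.41), and the ubiquitin ligase gene Traf6 (-0.38). Traf1 was higher by 1.12 (adjusted p = 0.00421), and Traf3 by 0.25, a call lost in 7 of 19 alternative analyses. Adjusted p-values of the 4 lower genes were 0.00072, 0.00183, 0.0017 and 0.00824.

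The 8 genes of the IkB kinases and the kinases above them gave 4 rises and 1 fall in WT cells. This compares with 27.4% and 28% of all genes, and the median log2 difference was 0.17. Map3k14, the kinase NIK of the noncanonical route, rose by 0.61 (adjusted p = 0.000793), Map3k8 by 0.53, Ikbkb, the canonical IkB kinase, by 0.36 and Tbk1 by 0.18. Chuk, which encodes IKK-alpha, fell by 0.48 (adjusted p = 9.14e-05). Between genotypes 1 was higher and 3 were lower, beside 11.8% and 16.8% of all genes, with a median of -0.08. Map3k3 was lower at -0.29 (adjusted p = 0.00934) and Chuk at -0.26 (adjusted p = 0.0139), the latter lost in 1 of 19 alternatives. Tbk1 was lower at -0.17 and Ikbke higher at 0.20, and these calls were lost in 10 and 11 alternatives.

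Other IkB family genes included Bcl3, a nuclear IkB protein, which rose by 1.50 on the log2 scale in WT cells (adjusted p = 3.52e-06). Nfkbid rose by 0.49 (adjusted p = 0.00101), and Nfkbib, which encodes IkB-beta, fell by 1.01 (adjusted p = 7.89e-06). Thus 2 of 3 rose and 1 fell, beside 27.4% and 28% of all genes, with a median of 0.49. Between genotypes Nfkbid was the 1 of 3 called, beside 28.6% of all genes. It was higher in MKP5-KO cells by 0.46 (adjusted p = 0.00502), and the median of the 3 was 0.07. Bcl3 had a difference of 0.07 and Nfkbib of -0.02, with adjusted p-values of 0.705 and 0.914.

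Among 8 deubiquitinases and partners of the Tnfaip3 product, 3 rose and 3 fell in WT cells, beside 27.4% and 28% of all genes. The median log2 difference was 0.13. Cyld, a deubiquitinase that restrains NF-kB, rose by 0.55 (adjusted p = 0.000139), Tnip2 by 0.48 and Itch by 0.25, the last lost in 2 of 19 alternatives. Tnip3 fell by 0.51 (adjusted p = 0.00201), Otulin by 0.32 and Tax1bp1 by 0.24. Between genotypes 2 were higher and 2 lower, beside 11.8% and 16.8% of all genes, with a median of -0.14. Tnip3 was higher in MKP5-KO cells by 1.23 (adjusted p = 3.45e-05) and Tnip2 by 0.52 (adjusted p = 0.00064). Cyld was lower at -0.34 (adjusted p = 0.0102) and Tax1bp1 at -0.30 (adjusted p = 0.00639).

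Of 15 genes of TNF superfamily ligands other than Tnf, 9 were tested. In WT cells 1 rose and 7 fell, beside 27.4% and 28% of all genes, with a median log2 difference of -1.42. Of the 7 falls, that of Tnfsf14 was lost in 9 of 19 alternatives. Tnfsf9, the ligand of a T cell co-stimulatory receptor, fell by 3.08 (adjusted p = 2.42e-08), Tnfsf8, the CD30 ligand, by 2.87 (adjusted p = 3.62e-06), Tnfsf10, the death ligand TRAIL, by 2.39 and Tnfsf13 by 1.93. The gene that rose, Tnfsf4, had 3 reads over the 0 h libraries and 30 over the WT libraries at 24 h, a ratio of 8.7 per scaled library size with an exact 95% counting interval of 2.7 to 44.5. Between genotypes 3 were higher and 0 lower, beside 11.8% and 16.8% of all genes, with a median of 0.39. Tnfsf8 was higher in MKP5-KO cells by 1.49 (adjusted p = 0.00237), at 2.64 against 0.899 CPM, and Tnfsf9 by 0.83 (adjusted p = 0.00214), at 2.93 against 1.66 CPM. Tnfsf12 was higher by 0.27 with overlapping groups, and its call was lost in 8 of 19 alternatives.

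Of 5 TNF superfamily receptors of the noncanonical route, 4 were tested. In WT cells 3 fell, beside 28% of all genes, with a median log2 difference of -0.99. Cd40 fell by 2.36 (adjusted p = 2.78e-06), Tnfrsf12a by 1.72 (adjusted p = 9.27e-05) and Ltbr, the lymphotoxin-beta receptor, by 0.25 (adjusted p = 0.00381). Between genotypes 2 were higher in MKP5-KO cells and 0 lower, beside 11.8% and 16.8% of all genes, with a median of 0.36. Tnfrsf11a, which encodes RANK, was higher by 0.49 (adjusted p = 0.00136), and Tnfrsf12a by 0.84 (adjusted p = 0.0239), a call lost in 4 of 19 alternatives.

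A list of 10 genes acts on the decay or translation of Tnf mRNA (the AU-rich site is printed with the promoters). Of these, 8 rose and 1 fell in WT cells, beside 27.4% and 28% of all genes, with a median log2 difference of 0.44. In all 19 alternatives 7 of the 8 rises kept their call. Zfp36l1, which binds AU-rich elements and speeds decay, rose by 1.81 (adjusted p = 6.08e-09) and its relative Zfp36l2 by 0.74 (adjusted p = 5.42e-07). Mapk14, the p38-alpha kinase and a substrate of MKP5, rose by 0.88 (adjusted p = 2.14e-07) and Mapkapk3, a kinase downstream of it, by 0.46. Elavl1, which encodes the stabilising protein HuR, fell by 0.48 (adjusted p = 0.000488). Between genotypes 1 was higher and 3 were lower, beside 11.8% and 16.8% of all genes, with a median of -0.15. Mapk14 was lower in MKP5-KO cells at -0.33 (adjusted p = 0.00203), Mapkapk3 at -0.37 (adjusted p = 0.0053) and Zfp36l2 at -0.25 (adjusted p = 0.00608). Zfp36, Zfp36l1 and Mapkapk2 were not called, at 0.06, 0.11 and -0.09 (limma adjusted p = 0.642, 0.239 and 0.26). Zc3h12a was higher by 0.35, a call lost in 10 of 19 alternatives.

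Of 36 genes known as NF-kB targets, 29 were tested. In WT cells 6 rose and 18 fell, beside 27.4% and 28% of all genes, with a median log2 difference of -1.18 beside 0.01 over all genes tested. The 6 rises and 17 of the 18 falls kept their call in all 19 alternatives, and the fall of Ccrl2 was lost in 9. The falls with the smallest p were in Ccl4 and Ccl3, chemokines for monocytes and T cells, by 3.59 (adjusted p = 9.31e-09) and 2.99 (adjusted p = 2.44e-08), Il1rn, the interleukin-1 receptor antagonist, by 3.16 (adjusted p = 4.28e-09), and Bcl2l1, an inhibitor of apoptosis, by 1.93 (adjusted p = 3.35e-08). The 6 rises were in Birc3, Cd83, Icam1, Il1b, Irf1 and Tlr2. Among them Cd83 rose by 1.30 (limma adjusted p = 9.98e-08) and Tlr2 by 1.41 (adjusted p = 1.68e-07). Il1b rose by 3.41 (adjusted p = 4.07e-06), at low levels of 0.195 CPM at 0 h and 2.25 CPM at 24 h. Between genotypes 9 were higher and 6 lower, beside 11.8% and 16.8% of all genes, with a median of 0.02. Of these, 7 of the 9 and 3 of the 6 kept their call in all 19 alternatives. Plaur, the urokinase receptor, was higher in MKP5-KO cells by 0.72 (adjusted p = 4.45e-05) and Bcl2l1 by 0.89 (adjusted p = 0.000111). Clec4e, a pattern recognition lectin, was lower at -0.71 (adjusted p = 0.000148) and Tlr2 at -0.70 (adjusted p = 0.000302). With upper-quartile scaling 9 were higher and 3 lower.

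**Figure D4:**
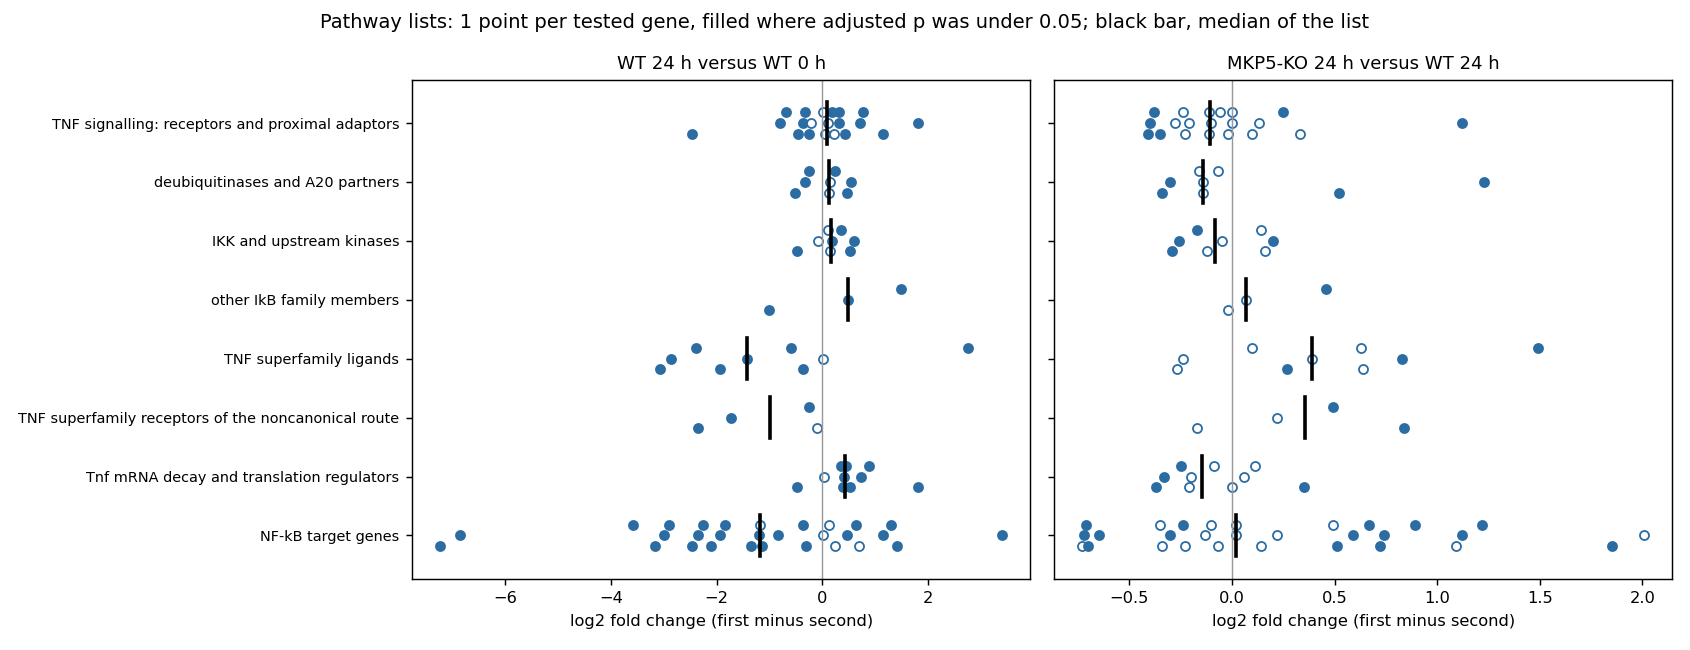
Log2 difference (horizontal axis, with a different scale in each panel) of the tested genes of 8 pathway lists in WT cells at 24 h against 0 h and in MKP5-KO against WT cells at 24 h. Each point is 1 gene, filled where limma's adjusted p was under 0.05, and vertical bars mark list medians; the medians of the target genes are -1.18 and 0.02.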

How the data were processed

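Total RNA of cultured macrophages was sequenced in 9 libraries, and each library has a table of 56775 genes. Reads were aligned with STAR to GRCm39, per the submitters' processing notes, while for annotation, counter and strandedness the choice is not given in the sources used here. The deposited values are log2 normalized counts per kilobase, and the file headers give each library's genotype, time and TMM factor. From these values reads were recovered with exon lengths of GENCODE M21, an annotation of GRCm38, although the processing notes name GRCm39. Of 25182 genes low enough to be checked, 87.4% had recovered reads that were whole within 0.004 reads or 0.02%, a further 2723 genes came out whole at a fitted length, 450 did not, and 983 had over 2000 reads and could not be checked. CPM (reads per 1000000 of the TMM-scaled library) come from these reads and serve for levels only. Counting error alone limits a level of few reads.

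A gene was kept if 3 libraries held 10 or more reads, scaled to median depth, and all libraries together held 15. The log2 values were fitted with limma 3.58.1 in R 4.3.3 (a mean per group, all 9 libraries, trend and robust empirical Bayes), with two-sided p-values adjusted by Benjamini-Hochberg over 14794 genes and a threshold of 0.05. Fold changes are on the log2 scale with 0.5 reads added. Fits were also run on simulated reads with a fixed spread and far fewer changed genes than were called here. That run cannot show how well the p-values hold for these data. Alternatives were 2 other filters, 2 other scalings, a prior of 2 reads, plain moderation, only the groups compared, a replicate block, reads thinned to 11139997, each library left out and, chosen after seeing the data, voom weights. The 10 genes and the lists were chosen with earlier results of these data known. Besides the 10 genes and Dusp10, named genes were up to 4 per list with the smallest p, list genes behind counts of 5 or fewer, markers, and the 5 profiles nearest to Tnf (predicted genes left out). Some genes and markers that this rule would name are left out of the text. Outside the rule, Zfp36, Zfp36l1 and Mapkapk2 were added between genotypes, and the rises among the NF-kB targets in WT cells. Promoters are RefSeq sequences (GRCm38.p6, 7 of 10 genes matched), and the AU-rich site comes from the GENCODE M21 annotation and transcript sequences.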

Additional observations from a re-analysis of the deposited data

How the results depend on the processing

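Over 19 alternatives, 563 of 570 log2 differences of the 10 genes kept their direction and their side of the threshold. The sign turned, without a call, for Nfkb1 between genotypes at 24 h with upper-quartile scaling (0.03, limma adjusted p = 0.696), for Rela in the same comparison with relative log expression (0.00, adjusted p = 0.971) and upper-quartile scaling (0.05, adjusted p = 0.437), and for Nfkbia in MKP5-KO cells at 24 h against WT cells at 0 h with upper-quartile scaling (0.07, adjusted p = 0.484). The other 3 (Tnfaip3, Nfkb2 and Rela) crossed the threshold as given in the report. The cause was not tested. With single libraries left out, 9 to 9 of the 10 genes were called in WT cells at 24 h against 0 h, 3 to 4 between genotypes and 8 to 9 in MKP5-KO cells at 24 h against WT cells at 0 h. Dusp10 stayed lower in MKP5-KO than in WT cells at 24 h, at -2.66 to -2.17.

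The replicate block gave 9, 3 and 9 called genes, as without it. Same-numbered libraries of different groups had r of deviations from group means of -0.02 to 0.19, over 0.1 in 2 of 9 pairs. Libraries with different numbers had r of -0.168 to 0.122. With 3 libraries per group, these values cannot decide whether the numbers pair the libraries. The MKP5-KO libraries were the shallowest, and thinning all libraries to equal depth left 9, 3 and 9 called genes. Replicate 1 of the MKP5-KO cells, the shallowest of all, also lay apart from replicates 2 and 3 over all tested genes. On principal component 2 (17.1% of the variance) it stood at 48.54, against 29.56 and 28.6. On component 3 (5.9%) it stood at 33.3, against -18.93 and -28.26.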
